A study of Mus musculus with 8 samples.

Results

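The regions described here are the KLF13 peaks that began just inside a gene. They were taken from a single deposited list of 9506 KLF13 peaks as all peaks whose distance to the assigned transcription start site (TSS) was 1 to 1000 bp on the downstream side. There were 1231 such peaks at 1204 genes. The distance is that of the peak edge nearest to the TSS, so none of these peaks lay over the TSS itself. They made up 16.2% of the 7599 promoter peaks, a term used here for peaks within 1000 bp of a TSS. The other promoter peaks were 5984 that lay over a TSS and 384 that lay 1 to 1000 bp upstream of one.

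The material was HT22, an immortalised mouse neuronal line of hippocampal origin, with the genotype HT22-BirA in every library. BirA is a bacterial enzyme that attaches biotin to a short peptide tag. All cells had received the pTO-Klf13Bio plasmid, and chromatin was collected 24 h after transfection. The 4 ChSP libraries (chromatin pulled down on streptavidin beads) were compared with 4 input libraries of unselected chromatin. Every library therefore came from cells that carried the ligase and the tagged KLF13. No library came from cells without the tag, so streptavidin background and KLF13 binding cannot be told apart at any single peak. The tagged protein was plasmid-borne, and its amount relative to native KLF13 was not analysed here. Each peak has 1 fold (ChSP over input, a linear ratio) and 1 p-value, both the authors' values over all 8 libraries together. Values per library, replicate spread and read depth are not part of the list, so no fold below has an error. Whether the numbered libraries came from separate cultures is not stated in the labels.

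KLF13 is a zinc finger protein of the Sp and Krüppel-like factor family. Members of this family bind GC-rich boxes and CACCC boxes, and KLF13 is known to recruit SIN3A and histone deacetylases and can also act as an activator. In most mammalian promoters the CpG-rich stretch spans the start site and continues into the first exon and first intron, where promoter-proximal pausing of RNA polymerase II also takes place. Peaks cannot show expression. Among 13 marker genes, promoter peaks lay at the neuronal genes Rbfox3 (over the TSS, fold 25.0), Map2 (upstream, 18.5) and Syn1 (downstream, 18.6) and at the oligodendrocyte gene Mbp (over the TSS, 26.6), and these do not test the identity of the cells.

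The DNA just before the TSS is shown for 8 of these genes. Here no called peak covers the start site, and the peak begins to its right. They are the peaks with the highest fold among named genes that had exactly 1 RefSeq promoter window starting at the authors' TSS and no other peak within 1 kb. Each run is the 120 bases that end right before the TSS, 5′ to 3′ on the gene's strand, from the RefSeq windows on GRCm38.p6. Capitals mark GGGCGG, the core of the GC box, and CACCC, on either strand.
Tnrc6a, chr7:123123765-123123884, + strand: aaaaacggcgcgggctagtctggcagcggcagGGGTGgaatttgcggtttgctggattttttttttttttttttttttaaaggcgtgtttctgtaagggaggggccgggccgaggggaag
Nfkbia, chr12:55492648-55492767, - strand: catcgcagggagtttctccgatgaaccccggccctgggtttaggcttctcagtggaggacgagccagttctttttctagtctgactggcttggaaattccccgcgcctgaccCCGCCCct
Hmgb3, chrX:71555797-71555916, + strand: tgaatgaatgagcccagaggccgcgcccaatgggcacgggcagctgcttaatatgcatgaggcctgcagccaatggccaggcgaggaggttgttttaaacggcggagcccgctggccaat
Tesk1, chr4:43442157-43442276, + strand: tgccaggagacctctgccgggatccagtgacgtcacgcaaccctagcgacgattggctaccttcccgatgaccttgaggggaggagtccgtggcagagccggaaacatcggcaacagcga
Amd1, chr10:40302189-40302308, - strand: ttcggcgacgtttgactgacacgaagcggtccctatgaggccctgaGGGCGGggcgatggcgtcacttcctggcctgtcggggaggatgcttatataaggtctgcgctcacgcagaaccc
Nufip2, chr11:77686019-77686138, + strand: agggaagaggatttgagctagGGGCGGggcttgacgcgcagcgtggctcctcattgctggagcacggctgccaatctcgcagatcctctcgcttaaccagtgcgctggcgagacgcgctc
Zfp91, chr19:12796124-12796243, - strand: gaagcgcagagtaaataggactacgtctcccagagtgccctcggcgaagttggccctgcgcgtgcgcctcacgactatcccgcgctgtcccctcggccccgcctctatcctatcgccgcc
Sertad1, chr7:27486833-27486952, + strand: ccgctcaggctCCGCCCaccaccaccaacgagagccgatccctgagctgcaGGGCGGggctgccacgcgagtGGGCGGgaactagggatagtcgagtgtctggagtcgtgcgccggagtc

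Among these stretches, Sertad1 (a SERTA domain transcription cofactor, fold 40.4) had 3 GGGCGG matches. Nfkbia, Amd1 (an enzyme of polyamine synthesis) and Nufip2 had 1 each, and Tnrc6a had 1 CACCC match. Hmgb3 (an HMG box chromatin protein), Tesk1 and Zfp91 (a zinc finger protein) had neither set of letters, and their peaks had folds of 43.3, 43.0 and 40.5. Tesk1, a testis-associated protein kinase gene, had its peak 524 bp inside the gene. Nufip2, an RNA-binding protein gene, had its peak 962 bp inside with a fold of 40.9. A match is a description of letters and not a mapped binding site.

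Inside the peaks, RefSeq windows of other start sites covered a few stretches. For 88 of the downstream peaks at least 100 bases could be read, 21545 bases in all. Over all downstream peaks, including those with fewer readable bases, the windows covered 4.08% of the bases. The 5 runs below are 30 bases around a GGGCGG match inside the peak, 5′ to 3′ on the gene's strand, with the match in capitals (CCGCCC where it lies on the opposite strand). They come from the 4 peaks with the highest fold among the readable ones with such a match, and from the widest peak, at Gnas.
Csrnp1, chr9:119983892-119983921, - strand: aggcgggggaggGGGCGGtgcctccggggc
Baz2a, chr10:128092734-128092763, + strand: cccctttaagcgCCGCCCcccccccctccg
Mmd, chr11:90249268-90249297, + strand: ggctctgaggttCCGCCCcacctaccgagc
Prdm10, chr9:31280856-31280885, + strand: atcccggcggcaCCGCCCgatggtacagtc
Gnas, chr2:174329794-174329823, + strand: accaccgcggggCCGCCCccttttcccccc

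The matches shown lay 749 bp after the TSS at Csrnp1, 286 bp at Baz2a, 475 bp at Mmd, 280 bp at Prdm10 and 1698 bp at Gnas. The readable bases of downstream peaks had a GC content of 71.0% and 6.27 GGGCGG matches per kb. Those of upstream peaks had 71.8% and 8.76 per kb, and those of peaks over a TSS 70.6% and 8.62 per kb. All 32851 RefSeq promoter windows together had 53.8% and 2.55 per kb. Being readable requires a second RefSeq start nearby, so these stretches are not a sample of all downstream peaks.

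Before the TSS, the share of promoters with GC box letters was lower where the peak lay downstream than where it lay over the TSS, and the intervals did not overlap. A RefSeq window (300 bases, 250 before the TSS and 50 after) started within 50 bp of the authors' TSS for 801 of the 1195 downstream peaks on the chromosomes of the table, which gave 790 separate windows. Of these, 497 (62.9%, exact 95% binomial interval 59.4 to 66.3) held GGGCGG on either strand. The share was 68.9% (62.1 to 75.2) for upstream peaks, 84.3% (83.1 to 85.4) for peaks over a TSS and 35.7% for all windows. CACCC was in 63.9% of the windows of downstream peaks, 72.8% of those of upstream peaks, 67.2% of those of peaks over a TSS and 57.5% of all windows. The windows lie differently to the peaks of each class. RefSeq windows covered 27.4% of the bases in peaks over a TSS but 4.08% of those in downstream peaks. The shares therefore set bases partly inside peaks against bases mostly outside them.

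In the windows of downstream peaks the CCAAT box letters had a share near that of the whole set of promoters, and the TATA box letters a lower one. CCAAT was in 38.2% (34.8 to 41.7) of the windows of downstream peaks, 27.2% (21.2 to 33.8) of those of upstream peaks, 30.9% (29.5 to 32.4) of those of peaks over a TSS and 37.4% of all. TATAAA was in 6.84% (5.18 to 8.82), 4.85% (2.35 to 8.75), 4.33% (3.73 to 5.00) and 13.6% of the same sets. The median GC content was 60.7% for downstream peaks, 67.2% for upstream peaks, 68.7% for peaks over a TSS and 52.7% for all windows. The median ratio of observed to expected CpG was 0.738, 0.825, 0.857 and 0.384 in the same order. The downstream group was thus the lowest of the 3 position classes in GC content and CpG ratio, and above the set of all promoters in both. GGGCGG follows GC content, and its share at equal GC content was not tested. GC content and CpG ratio also come from windows that lie mostly outside the downstream peaks. The intervals cover counting error only.

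Peaks beside a TSS lay mostly on its downstream side. Of the 1615 promoter peaks that did not cover their TSS, 1231 (76.2%, 74.1 to 78.3) lay downstream and 384 upstream. The share was 76.9% for genes on the plus strand and 75.5% for genes on the minus strand. Peaks over a TSS leaned to the same side: 73.2% (72.1 to 74.3) of them had their centre downstream, and among those at most 500 bp wide 65.4% (62.7 to 68.0) did. Their centres had a median position 90.5 bp downstream of the TSS. The centres of the downstream peaks had a median position of 437.5 bp.

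**Figure D1:**
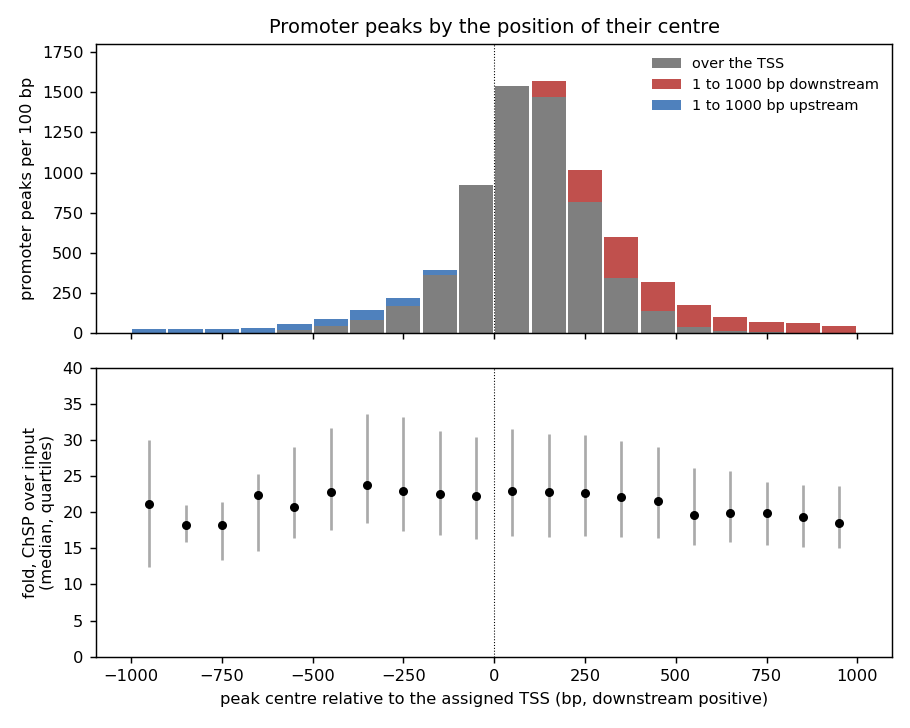
Upper plot: number of promoter peaks per 100 bp by the position of the peak centre relative to the assigned TSS in bp (centres within 1000 bp are drawn), stacked by position class. Lower plot: median fold of ChSP over input per 100 bp, with bars from the lower to the upper quartile, over all promoter peaks of that position. The fullest positions lie from 0 to 200 bp downstream, with 1539 and 1571 peaks, and the median fold runs from 22.9 just downstream of the TSS to 18.6 at 900 to 1000 bp. The mix of classes changes along the way: all 1539 peaks at 0 to 100 bp lay over a TSS, and 46 of the 47 at 900 to 1000 bp were downstream peaks.

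The near edge of the downstream peaks was at a median of 164 bp from the TSS (quartiles 67 and 365.5). It lay within 100 bp for 438 peaks (35.6%) and within 500 bp for 1021 peaks (82.9%). Upstream peaks were farther off, with a median of 250.5 bp and 24.2% within 100 bp. The counts fell from 438 at 1 to 100 bp to 257 at 101 to 200 bp and 28 at 901 to 1000 bp. Peak edges come in steps of 100 bp, which limits how finely these distances can be read.

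**Figure D2:**
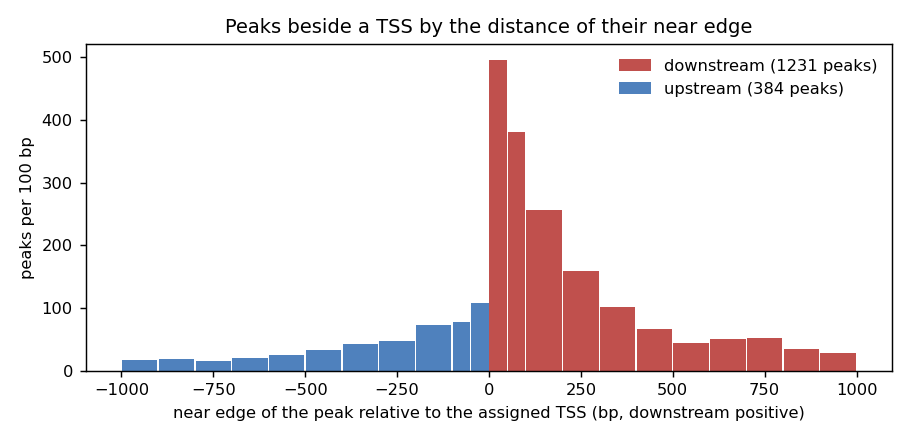
Number of peaks per 100 bp against the position of the near edge of the peak relative to the TSS in bp, for the 1231 downstream peaks (right) and the 384 upstream peaks (left). The bars nearest the TSS stand for 50 bp ranges scaled to 100 bp, and the downstream side is the higher at every distance.

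The position of a peak depends on which start site it is measured from. The authors' TSS lay within 50 bp of the outer 5′ end of the gene in a RefSeq gene table for 699 of the 1231 peaks (56.8%, 54.0 to 59.6), and more than 1 kb inside the gene for 212. Measured from the outer 5′ end, 944 of the 1231 were still 1 to 1000 bp downstream. Over the whole list, 1906 peaks were then downstream and 179 upstream (91.4% downstream). The outer end is the farthest upstream start of a gene, so this measure moves peaks to the downstream side by its construction. A few of the peaks covered another start: of 1195 peaks on the chromosomes of the window table, 48 lay over another RefSeq start of their own gene and 27 over a start of another gene, 20 of these on the opposite strand. Together 74 peaks (6.19%, 4.89 to 7.71) covered any RefSeq start, against 35 of 369 upstream peaks (9.49%, 6.70 to 12.9). Several peaks named in this report are among the 74. Those at Csrnp1, Baz2a, Mmd, Gnas and Kmt5b covered another start of their own gene. Those at Tm2d3 and Prdm10 covered a start of another gene, and that at Gabra4 covered the start of Gabrb1 on the opposite strand.

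Downstream peaks were lower and narrower than peaks over a TSS. Their median fold was 16.9 (quartiles 12.6 and 21.7, range 2.54 to 60.7), against 24.1 (18.1 and 32.4) over a TSS and 17.7 (13.7 and 21.6) upstream. Folds of 40 or more were reached by 21 downstream peaks (1.71%), by 8 upstream peaks and by 701 peaks over a TSS (11.7%). The median width was 500 bp, against 400 bp upstream and 700 bp over a TSS, and 12.9% of downstream peaks had the smallest width of 200 bp against 1.40% over a TSS. A peak counted as over a TSS when any of its bases touched it, which a wide peak does more easily. The rule thus sorts peaks partly by width. Fold rose with width in each class, so fold differences without width in the fit carry this sorting too. The authors' p had a median of 4.96e-09 downstream, 3.96e-08 upstream and 1.32e-14 over a TSS. Of the downstream peaks 313 (25.4%, 23.0 to 28.0) ranked within the 4753 smallest p of the whole list.

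In a least squares fit of log2 fold across all 7599 promoter peaks, the downstream peaks were 0.697 times as high as peaks over a TSS (log2 difference -0.52, SE 0.0189, 95% interval -0.56 to -0.48). The two-sided p, adjusted by the Benjamini-Hochberg method over the 2 differences of the fit, was 5.82e-159. Against the 384 upstream peaks the ratio was 0.952 (log2 difference -0.07, SE 0.0353, 95% interval -0.14 to -0.0015), and the adjusted p was 0.0453. Peaks are not replicates of an experiment, and these p-values measure only the spread among peaks of this 1 list. With log2 peak width in the fit, the ratio to peaks over a TSS was 0.898, a log2 difference of -0.16 with an adjusted p of 7.93e-22. The ratio to upstream peaks was then 0.889, a log2 difference of -0.17 with an adjusted p of 1.48e-09. Width therefore moved the first difference by more than 1.5 times downward and the second by more than 1.5 times upward.

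Within ranges of equal width, downstream peaks came closer to peaks over a TSS among narrow peaks and stayed below them among wide ones, and they were below upstream peaks in every range. At 200 to 300 bp the median folds were 12.1 downstream (342 peaks), 14.1 upstream and 13.0 over a TSS. At 400 to 500 bp they were 16.0, 18.3 and 16.0. At 800 to 1000 bp they were 22.0, 24.0 and 28.0. Among peaks of 1100 bp or more the 58 downstream peaks had a median of 23.1, against 32.5 for 17 upstream peaks and 32.1 for 1159 peaks over a TSS.

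**Figure D3:**
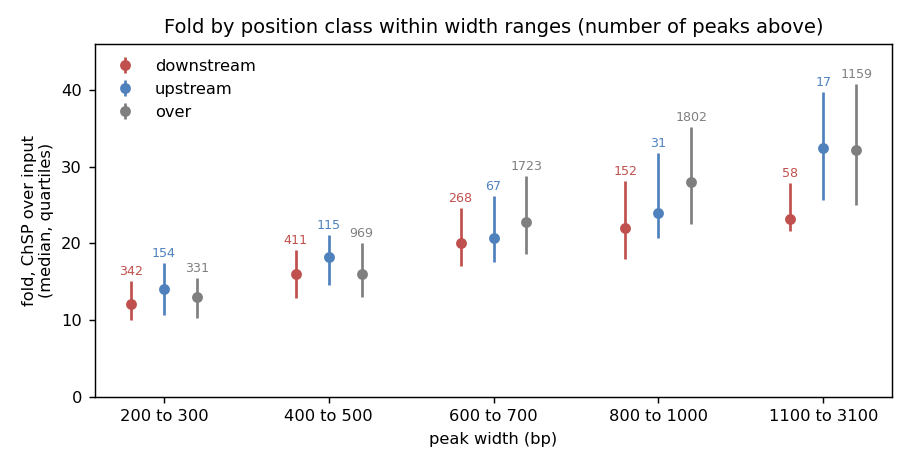
Median fold of ChSP over input (points) with quartiles (bars) for downstream, upstream and over-TSS peaks, in 5 ranges of peak width in bp, and the number of peaks above each bar. Fold rises with width in each class, and the downstream and over-TSS medians are 16.0 and 16.0 at 400 to 500 bp but 22.0 and 28.0 at 800 to 1000 bp.

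Among the 1231 peaks themselves, fold showed little relation to distance. The median fold per distance range ran between 15.2 and 18.2 with no order, and Spearman's rho over the 1231 peaks was 0.0248 between distance and fold. It was 0.639 between width and fold and 0.660 between fold and the negative logarithm of p. Width, fold and p come from the same reads. At the inner limit, the peaks 1 bp from the TSS included those at Mepce (fold 20.6), Sall4 (21.8), Dtd2 (11.9) and Odf2l (12.8). The outermost lay at Elovl6 (986 bp, 18.5), and the next peaks outside the limit lay at Sall4 (1001 bp, 17.0), Gp1bb (1003 bp, 18.9) and Khdc3 (1003 bp, 16.3). The 28 peaks at 901 to 1000 bp had a median fold of 18.0, and the 21 at 1001 to 1100 bp had 16.3.

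**Figure D4:**
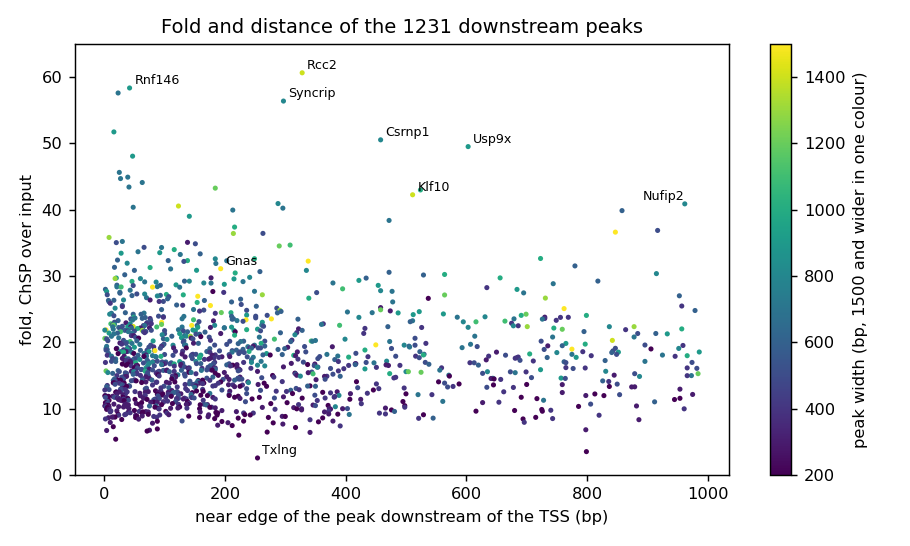
Fold of ChSP over input against the distance of the near edge from the TSS in bp for each of the 1231 downstream peaks, coloured by peak width in bp. High folds occur across the range, from Rnf146 at 42 bp (fold 58.4) to Nufip2 at 962 bp (fold 40.9), and wider peaks tend to lie higher (Spearman's rho 0.639).

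The peak with the highest fold was at Rcc2, which encodes a regulator of chromosome condensation and mitotic progression. It had a fold of 60.7 and spanned chr4:140701801-140703200, starting 328 bp after the TSS. A second peak over the same TSS, separated by 100 bp, had a fold of 61.7, so at Rcc2 the signal was nearly equal on both sides of that gap. Rnf146, a ubiquitin ligase that recognises poly(ADP-ribosyl)ated proteins, had 58.4 (chr10:29361501-29362400, 42 bp). Rpf1, a ribosome biogenesis factor gene, had 57.6 (chr3:146520701-146521400, 23 bp), and Syncrip, which encodes the RNA-binding protein hnRNP Q, had 56.4 (chr9:88481301-88482100, 297 bp). Rnf146 and Rpf1 had no other peak within 1 kb. Their near edges lay closer to the TSS than the 100 bp step of peak edges, and signal outside called peaks was not examined.

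Tnrc6a, whose product links Argonaute to silencing of microRNA targets, followed with 51.7 at 16 bp. Csrnp1, a nuclear protein gene induced by AXIN1, had 50.5 at 458 bp, and Usp9x, an X-linked deubiquitinase gene, had 49.5 at 603 bp. Nfkbia, which encodes the NF-κB inhibitor IκBα, had 48.1 at 47 bp. Next came Frmd4a, a FERM domain scaffold gene, with 45.6, Tm2d3 with 44.9, Rbm26, an RNA-binding protein gene, with 44.7 and Gsr, which encodes glutathione reductase, with 44.1. These last 4 peaks were all 700 bp wide and lay 25 to 63 bp from the TSS.

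The lowest folds were 2.54 at Txlng, a taxilin gene, and 3.49 at S100g, a calcium-binding protein gene. Both genes lie close together on the X chromosome in a stretch from 160390401 to 165128200 that held 70 peaks of the list with folds between 2.54 and 27.8. Mtor, the kinase at the centre of nutrient signalling, had 5.37, and Hps6, a subunit of a complex of lysosome-related organelles, had 5.98. All 4 were of the smallest width, 200 bp.

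The widest downstream peak covered 2800 bp at Gnas (chr2:174328301-174331100, fold 31.1), the gene of the stimulatory G protein alpha subunit, an imprinted locus with several start sites. Sp9, a Sp family factor of forebrain interneurons, had a peak of 2200 bp with a fold of 19.0. Foxc1, a forkhead factor, had 1900 bp and 26.9, and Vegfa, the vascular growth factor, had 1800 bp and 23.5. The smallest p was 3.12e-32 at Trim33, a ubiquitin ligase acting on SMAD signalling, whose peak of 1300 bp had a fold of 35.8. Rpf1, Nfkbia and Klf10 followed with p of 1.30e-30, 1.54e-30 and 2.53e-29.

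Of the 1231 peaks, 276 (22.4%, 20.1 to 24.9) belonged to a gene with a further peak over or upstream of a TSS. A peak over a TSS was present for 202 of the 1231 (16.4%, 14.4 to 18.6) and an upstream peak for 95. Of the 384 upstream peaks, 119 (31.0%, 26.4 to 35.9) belonged to a gene with a peak over a TSS. For 817 peaks the downstream peak was the only one assigned to its gene. In the 202 cases the downstream peak was the lower in 129 and the higher in 73, and the median ratio of downstream to over-TSS fold was 0.841 (quartiles 0.604 and 1.13). Restricted to the 113 with the same transcript, the ratio was 0.814, with 75 lower and 38 higher. Each downstream peak was paired with a single peak over a TSS, and these counts depend on which peak is taken where a gene has several. The gap between paired peaks had a median of 300 bp (range 100 to 632700), and of 200 bp for the same transcript. Whether close pairs are parts of the same enriched stretch was not tested.

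Some genes carried the larger peak inside. Ephb3, an ephrin receptor of axon guidance, had a fold of 32.3 downstream against 7.75 over a TSS, a ratio of 4.17, but the 2 peaks used start sites 6300 bp apart. Il17d, a cytokine gene, had 38.4 against 9.95 at the same start site, a ratio of 3.86. Dll1, a Notch ligand, had 18.6 against 10.3. Zfp36l2, which encodes an mRNA-destabilising protein, had 36.6 against 20.4. The opposite held at Cdkn1c, a cyclin-dependent kinase inhibitor gene, with 19.6 against 45.6, and at Tcf7l2, a transcription factor of Wnt signalling, with 24.1 against 70.1. Il17d and Dll1 were chosen here after their values were seen.

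The genes of KLF13's own family had 25 promoter peaks, 8 of them downstream (32.0%, 14.9 to 53.5, beside the 16.2% of all promoter peaks). Klf10, a factor induced by TGF-beta, had the highest of these, 42.2 at 511 bp, above the 33.1 of the peak over its TSS. Klf5 had 31.1 at 110 bp and Klf2 26.6 at 339 bp, and neither gene had another promoter peak. Klf15 had 22.2 at 75 bp and Klf1, the erythroid factor, 15.0 at 973 bp. Sp5 was covered on all sides, with 22.4 downstream, 19.1 over the TSS and 9.78 upstream. Sp9 had 19.0 downstream and 18.5 over the TSS. Klf9, a close relative of KLF13, had 12.1 at 975 bp against 33.0 over its TSS. The interval for the family holds the share of all promoter peaks, so at 25 peaks no departure from it was detectable.

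Of 40 gene lists, 32 had at least 20 promoter peaks, and the downstream share lay above 16.2% in 13 of them. The exact 95% interval held that overall share in 30 of the 32. The exceptions were a list of developmental transcription factors and chromatin remodellers, and 32 intervals were read without adjustment. Peaks of the same gene were counted separately in these intervals. No list was tested.

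The list of developmental transcription factors holds the genes named Hox, Sox, Fox, Tbx, Pax, Pou, Lhx, Meis, Pbx, Nkx and Dlx and the relatives of Six2, and leaves out other homeobox genes, such as En1, whose downstream peak had a fold of 36.4 at 214 bp. The listed genes had 45 downstream peaks of 132 promoter peaks (34.1%, 26.1 to 42.8). The downstream folds ran from 9.10 to 29.7, with a median of 18.3 beside 16.9 for all downstream peaks. The median widths were 600 and 500 bp. Hox genes, which set position along the body axis, had 9 of 21, SOX genes 9 of 19 and forkhead genes 14 of 42. Within the list Hoxb4 had the highest fold, 29.7 at 434 bp, followed by Dlx6, a forebrain homeobox gene, with 27.3 at 67 bp and Foxc1 with 26.9 at 155 bp. Sox3, a neural progenitor factor, had 25.4, and Pou3f2, a neuronal POU factor also called Brn2, had 26.3. Sox2, the stem cell factor, had the lowest downstream fold of the list, 9.10, beside 26.9 for a peak over the same TSS. The transcripts of the list were short, with a median span of 4673 bp against 28511 bp for all promoter peaks, and the part of span in the share was not tested. When the promoter peaks were limited to the 4753 smallest p of the deposited list, 50 remained in this group and 18.0% of them were downstream, beside 7.25% of all.

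Chromatin remodellers had 12 of 39 promoter peaks downstream (30.8%, 17.0 to 47.6), at 10 genes. The interval counts every peak, although Baz2a and Chd7 had a pair of downstream peaks each. Its lower end lies close to the 16.2% of all promoter peaks, and an interval over genes was not computed. Baz2a, a subunit of the nucleolar remodelling complex, led with 43.4 at 41 bp, in a peak that also covered another RefSeq start of the gene. A further downstream peak of Baz2a, with 14.9, was assigned to a different start site. Smarca5, the SNF2H ATPase that partners it, had 33.3, and Dpf3, a BAF subunit gene, 24.8. Chd7, an ATP-dependent remodeller of neural crest development, had 20.9 and 19.4 in a pair of downstream peaks at different start sites. Smarca5 and Dpf3 had no peak over a TSS.

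The corepressors that KLF13 is known to work with had 5 of 29 promoter peaks downstream (17.2%, 5.85 to 35.8). Sin3a, the scaffold itself, had a pair at different start sites, with folds of 28.3 at 125 bp from its own start and 9.95 at 961 bp from another, farther upstream. Arid4b and Brms1l, further subunits of SIN3 complexes, had 30.5 and 24.5. Histone methyltransferases and demethylases had 7 of 47 (14.9%), led by Prdm10 with 39.9, Kmt5b with 28.3 and the H3K27 demethylase gene Kdm6a with 22.2. Polycomb genes had 2 of 29 (6.90%), Phc3 with 22.0 and Bcor with 16.1.

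Neuronal lists lay near or slightly above the overall share. Synapse genes had 21 of 95 (22.1%, 14.2 to 31.8), among them Stx3, a syntaxin of vesicle fusion, with 32.3, Nlgn2, the neuroligin of inhibitory synapses, with 27.7, and Gabra4, a GABA-A receptor subunit, with 26.1. The postsynaptic scaffold genes Shank1, Shank2 and Shank3 had 14.6, 17.0 and 10.4. Ion channels had 21 of 107 (19.6%), including the potassium channel gene Kcna7 with 29.8, the chloride channel gene Clcn2 with 27.7 and the sodium channel gene Scn8a with 19.2. Axon guidance genes had 12 of 68 (17.6%), with Epha7 at 24.1 and the netrin receptor gene Unc5a at 23.9 after Ephb3.

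Immediate early genes had 7 of 24 (29.2%, 12.6 to 51.1). Jund had 25.1 at 762 bp, Ier5 24.1, Egr4 20.3 and Egr3 19.0, and the nuclear receptor gene Nr4a3 13.0. Wnt genes had 10 of 58 (17.2%), among them Wnt4 with 24.4 and Wnt10b with 23.5. TGF-beta and BMP genes had 6 of 43 (14.0%), with the ligand genes Bmp3 at 25.1 and Tgfb2 at 21.4 and the inhibitory Smad6 at 22.0. In cAMP signalling there were 6 of 41 (14.6%), with the phosphodiesterase genes Pde3a at 22.1 and Pde8a at 19.5 after Gnas.

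Growth and housekeeping lists were mixed. Ubiquitin genes had 34 of 227 (15.0%, 10.6 to 20.3), with Usp10 at 39.0 after Rnf146 and Usp9x. Splicing and RNA-binding genes had 16 of 80 (20.0%), with Luc7l2 at 29.1 and the helicase gene Ddx3x at 28.9 after Rbm26. In the mTOR pathway the share was 4 of 26, with the S6 kinase gene Rps6kb1 at 26.9, Rptor at 21.1 and Pik3c2a at 13.8 beside the low Mtor. Respiratory chain and mitochondrial ribosome genes had 7 of 24 (29.2%), led by Atp5a1 with 29.2. Their median fold of 11.7 was below the 16.9 of all downstream peaks. Their median width was 300 bp against 500 bp, and folds at equal width were not compared for any list. Cell cycle genes had 7 of 46 (15.2%), with the phosphatase gene Cdc25a at 32.4 and E2f2 at 25.7. Solute carriers had 18 of 147 (12.2%), with the glucose transporter gene Slc2a1 at 33.7.

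At the low end, circadian clock genes had 0 of 20 promoter peaks downstream, which allows a share of up to 16.8%. Translation initiation factors had 1 of 27 (3.70%, 0.0937 to 19.0) and genes of the centrosome and cilium 1 of 25. Rab GTPases and vesicle coats had 12 of 111 (10.8%, 5.71 to 18.1), with a median fold of 12.8, a median width of 350 bp and Rab14 highest at 29.7. The intervals of these lists hold the overall share, so a deficit was not detectable.

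**Figure D5:**
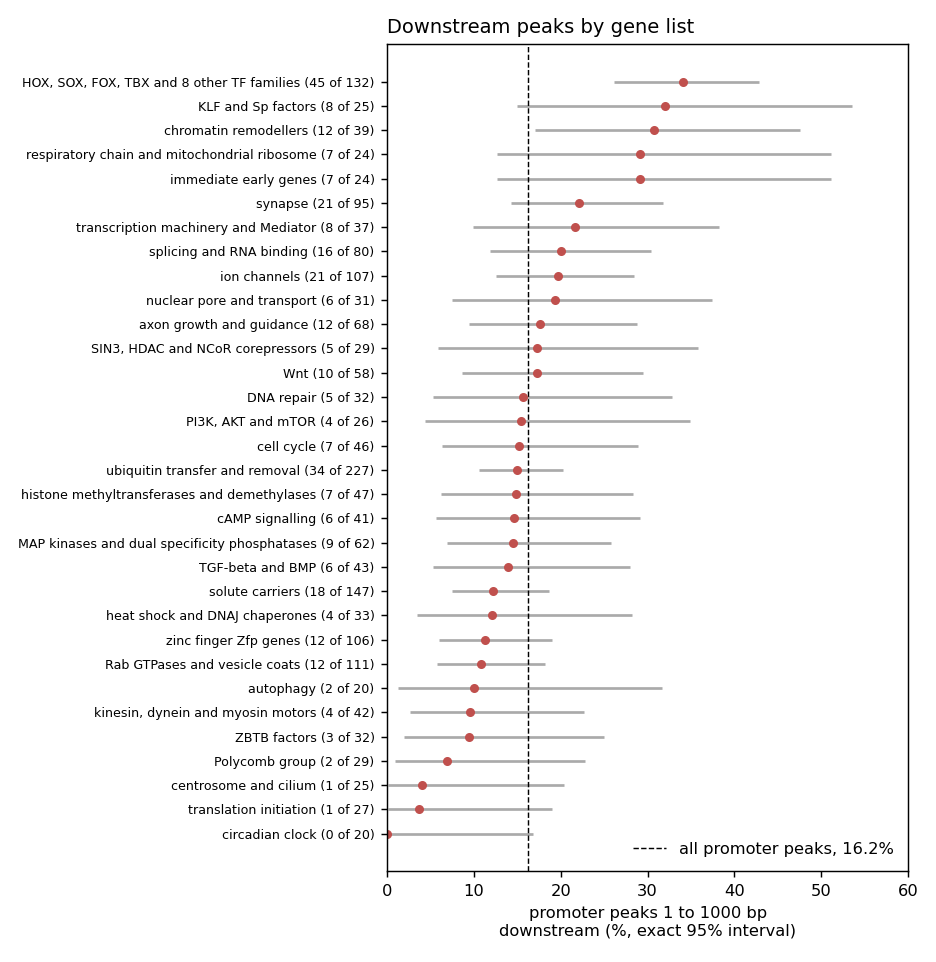
Share of promoter peaks that lie 1 to 1000 bp downstream of the TSS, in percent, for the 32 gene lists with at least 20 promoter peaks, with exact 95% binomial intervals (bars), counts in parentheses and the share of all promoter peaks (dashed line, 16.2%). The interval lies wholly above the line for the listed developmental transcription factors (34.1%) and the chromatin remodellers (30.8%) and crosses it for the other 30 lists.

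Nearly all downstream peaks were at protein-coding genes, 1184 of 1231 (96.2%), with 35 at long noncoding RNA genes, 8 at microRNA genes and 4 at transcribed pseudogenes. The share was 96.6% for peaks over a TSS. A downstream peak was present at 1158 of the 21900 protein-coding genes of the RefSeq gene table, or 5.29%. Members lay on 20 chromosomes, and their share of promoter peaks ran from 62 of 517 peaks on chromosome 5 to 33 of 141 on the X chromosome (23.4%, 16.7 to 31.3).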

How the data were processed

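The authors summarised 4 ChSP and 4 input libraries of HT22-BirA cells in 1 annotated peak list over all of them. PePr, named in the title of the list, has no stated version or settings. HOMER 4.9.1, ChIPseeker 1.16.1, the aligner BWA 0.7.17-r1188 and FastQC 0.11.3 are listed with GRCm38, without roles, per the submitters' processing notes. Per the file headers and values, the deposited fold is a linear ratio of ChSP over input computed by the authors, whose scaling between libraries is not given. Each peak also has a deposited p-value by the authors, and the deposited score is proportional to the fold and was left aside. Width, distance to the TSS, transcript span and assigned gene were taken from the authors' annotation. Read depth is unknown.

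Peaks were classed by distance as downstream (1 to 1000 bp), upstream or over the TSS (0). Log2 fold was fitted by ordinary least squares on the 3 classes over 7599 promoter peaks, with two-sided tests adjusted over 2 differences, threshold 0.05. The fit was tested on simulated data. Shares carry exact (Clopper-Pearson) 95% intervals for counting error only. RefSeq windows and gene names are on GRCm38.p6, windows of 1 chromosome were not used here, and no genome sequence was used. Motif letters were searched on both strands, overlaps allowed, and GGGCGG and CACCC do not overlap in definition.

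The peaks, the 40 gene lists and the tests were chosen with earlier results of these data known. Lists are name patterns, and that of developmental factors was corrected after its values were seen (NKX genes added, an antisense RNA removed). Named genes are the 12 highest, 4 lowest, 4 widest and 4 smallest in p among named genes, all KLF and Sp genes, up to 3 of highest fold from each list with at least 3 downstream peaks, the edges of the distance limit, and 4 genes with a pair of downstream peaks. En1, Sox2, Sox3, Pou3f2, Chd7, Phc3, Bcor, the Shank genes, Scn8a, Egr3, Nr4a3, Il17d, Dll1, Tcf7l2's pair and the genes whose sequences are printed were named in addition, after their values were seen. Some genes that the rule takes are not reported here. Alternatives were the 4753 smallest p of the list, no peaks of the 5% widest, a limit of 500 bp, width as a covariate, leaving out peaks with another within 1 kb or unnamed gene models, the outer 5′ end of the gene, and GGGCGGG. Python 3.11.15, numpy 2.4.6, pandas 2.3.3, scipy 1.17.1 and matplotlib 3.10.9 were used.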

Additional observations from a re-analysis of the deposited data

How the results depend on the processing

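Both differences in log2 fold kept their direction and stayed past the threshold in the least squares fit under all 8 alternatives, 2 of them (without a stretch of chromosome X, and 1 peak per gene and class) chosen after seeing the data. The difference to upstream peaks ran from -0.17 to -0.07, with adjusted p from 1.48e-09 to 0.0403, and that to peaks over a TSS from -0.55 to -0.16. The number of downstream peaks was 1906 from the outer 5′ end and 313 within the 4753 smallest p. In that smaller set the downstream share of flanking peaks was 81.1%, the share with a further promoter peak 10.5% and the GGGCGG share 57.2%. Without peaks that have another within 1 kb the first 2 of these shares were 82.9% and 4.10%, the second by construction. At a limit of 500 bp the share with a further promoter peak was 18.1%. GGGCGGG was in 45.2% of windows. The share of the developmental transcription factors moved to 18.0% in the smaller set (8.58 to 31.4), beside 7.25% of all promoter peaks there. Other causes were not tested. No paired analysis was possible because every deposited value is pooled over all libraries. For the same reason no library could be left out, and depth sets no limit that can be computed.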

Other observations

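The 8 microRNA genes with a downstream peak had folds from 11.9 at Mir6991 to 19.8 at Mir1893. Their transcripts span 43 to 120 bp, and the peaks lay 46 to 966 bp after the annotated start, and 7 of the 8 began beyond the end of the transcript. In all, 17 of the 1231 downstream peaks reached past the end of their transcript.

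A pair of downstream peaks was found at 27 genes. Hand2, a heart and neural crest factor, had 29.2 at 818 bp and 14.0 at 418 bp from the same start. Midn, the midnolin gene, had 28.7 and 22.3 for transcripts with different starts. Mycn, the neuronal MYC gene, had 18.6 at 36 bp and 17.9 at 516 bp, also from different starts. Esrrg, an orphan nuclear receptor gene, had 11.1 at 495 bp and 8.04 at 195 bp from 1 start.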
